A study of Mus musculus with 6 samples.

Results

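Lcn2, Lbp, Steap4, Il1rn, Crp and Apcs are 6 genes of the acute phase response and of innate defence, taken by symbol from a table of 25302 rows of gene expression. They were chosen with the difference between the 2 groups of mice already known, and were in that sense selected on the normalised reads of this contrast, so their values in it are a description. Where it is said whether a member lay past the threshold of the fit over all genes, that too only describes it and is no independent test. RNA was sequenced from liver samples labelled as biliary epithelial cells, which form the wall of the bile ducts. There were 3 Control samples, of genotype Sox9fl/fl, and 3 Sox9cKO samples, of genotype Sox9fl/fl:AlbCre+/-, so floxed Sox9 alleles were common to both groups and the Cre transgene was carried by Sox9cKO alone. Cre under the albumin promoter acts in the embryonic liver progenitors that form hepatocytes and bile ducts, and in hepatocytes, so its action is not limited to the cells sampled. Sox9 encodes a transcription factor of the bile duct lineage. The age and sex of the mice, and any treatment, were not given in the sources used here.

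The acute phase response is a change in the proteins that the liver secretes during infection or injury. IL-6 and its relatives act through the receptor chain gp130 and the transcription factor STAT3, IL-1 and bacterial lipopolysaccharide act through NF-kappaB, and C/EBP factors take part in both. Hepatocytes are the main source of the secreted proteins, but epithelia, bile ducts among them, can make several of the defence proteins themselves. Lcn2 encodes lipocalin-2, which binds the siderophores that bacteria use to take up iron. Lbp encodes the protein that carries lipopolysaccharide to CD14, and Steap4 encodes a membrane enzyme that reduces iron and copper. Il1rn encodes the antagonist that occupies the IL-1 receptor without signalling. Crp and Apcs encode the short pentraxins C-reactive protein and serum amyloid P component, of which serum amyloid P is the strongly inducible one in mice.

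The recovered read totals lay between 11883496 and 16191990 per library, and the members were counted with 58 to 9015 reads in a library. Sox9 checks the labels: it was 6182 ± 127 normalised reads in Control and 3289 ± 108 in Sox9cKO (SD, n = 3), or 53.2% of the Control level. Biliary markers were present in every library, with Krt19 at 12049 ± 493 in Control and 18869 ± 7123 in Sox9cKO and Epcam at 7302 ± 655 and 6635 ± 1435. Normalised reads are read counts divided by a factor for each library. The labels do not say whether the samples came from separate animals, so p-values measure only the spread between these samples. In bulk samples, a change in the number of cells of a type and a change in RNA per cell cannot be told apart.

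The sequence just upstream of the start site is shown for 4 members, to set the member with the highest level, Lcn2, and the member with the smallest standard error, Steap4, beside the pentraxins, which differed least between the groups. Each run is the 250 bases before the RefSeq start on GRCm38.p6, read 5′ to 3′ on the gene's strand, and letters that match a searched motif are in capitals.
Lcn2, chr2:32387740-32387989, minus strand: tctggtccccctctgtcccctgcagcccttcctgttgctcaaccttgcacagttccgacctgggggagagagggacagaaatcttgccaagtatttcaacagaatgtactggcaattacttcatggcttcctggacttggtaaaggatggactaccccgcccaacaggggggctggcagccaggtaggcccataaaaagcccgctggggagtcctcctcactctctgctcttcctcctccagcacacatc
Steap4, chr5:7960222-7960471, plus strand: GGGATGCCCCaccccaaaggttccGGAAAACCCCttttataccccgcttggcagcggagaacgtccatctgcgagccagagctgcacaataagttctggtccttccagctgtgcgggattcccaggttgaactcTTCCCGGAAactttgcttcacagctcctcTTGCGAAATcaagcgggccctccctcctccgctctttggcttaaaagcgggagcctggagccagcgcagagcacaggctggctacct
Crp, chr1:172697806-172698055, plus strand: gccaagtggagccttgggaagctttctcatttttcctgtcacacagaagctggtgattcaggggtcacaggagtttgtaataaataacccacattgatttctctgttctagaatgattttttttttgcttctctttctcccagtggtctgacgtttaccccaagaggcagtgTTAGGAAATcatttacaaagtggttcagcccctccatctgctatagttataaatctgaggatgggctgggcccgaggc
Apcs, chr1:172895055-172895304, minus strand: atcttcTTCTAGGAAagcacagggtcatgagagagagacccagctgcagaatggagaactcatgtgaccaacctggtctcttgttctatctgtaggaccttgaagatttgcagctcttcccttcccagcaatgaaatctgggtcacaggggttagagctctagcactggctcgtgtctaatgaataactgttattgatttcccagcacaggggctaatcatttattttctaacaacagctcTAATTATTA

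The motifs were TTCNNNGAA (STAT), TTNNGNAAT (C/EBP), TAATNATTA (HNF1 core) and the kappaB motif, each searched on both strands after these sequences had been seen. Steap4 held a STAT match, TTCCCGGAA, at positions -116 to -108, a C/EBP match, TTGCGAAAT, at -87 to -79, and 2 kappaB matches, at -250 to -241 and -226 to -217, none of which overlapped another. Crp held a C/EBP match, TTAGGAAAT, at -78 to -70. Apcs held a STAT match, TTCTAGGAA, at -244 to -236 and an HNF1 core match, TAATTATTA, at -9 to -1. Lcn2 held none of these letters in its window. Il1rn has 3 windows in the table, of which 1, at chr2:24345121-24345370, held a C/EBP match, TTTGGAAAT, at -64 to -56. Among 32851 RefSeq windows of the same length, 7.02% held the STAT letters, 10.2% the C/EBP letters, 3.90% the kappaB motif and 0.588% the HNF1 core. Of the 6 members, 5 had an entry and Lbp was not analysed here. A match describes the letters and was not tested for binding.

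In the fit over all genes, Lcn2, Lbp and Steap4 of the 6 members lay past the threshold as higher in Sox9cKO and none as lower. The threshold was an adjusted p under 0.05 (limma, Benjamini-Hochberg over 17153 genes), and 349 of all tested genes, 2.03%, passed it as higher and 161, 0.939%, as lower. Either direction together made up 510 genes, 2.97%. When the replicate number entered as a block, the shares were 5.06% higher, 2.99% lower and 8.05% in all, and the number of members past the threshold stayed at 3. In 5 members, every one but Crp, all Sox9cKO values lay above all Control values, which held for 13.4% of all genes tested. The median log2 fold change of the members was 1.81, beside 0.036 for all genes tested. These counts describe genes chosen on this contrast, and nothing is read from them.

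**Figure D1:**
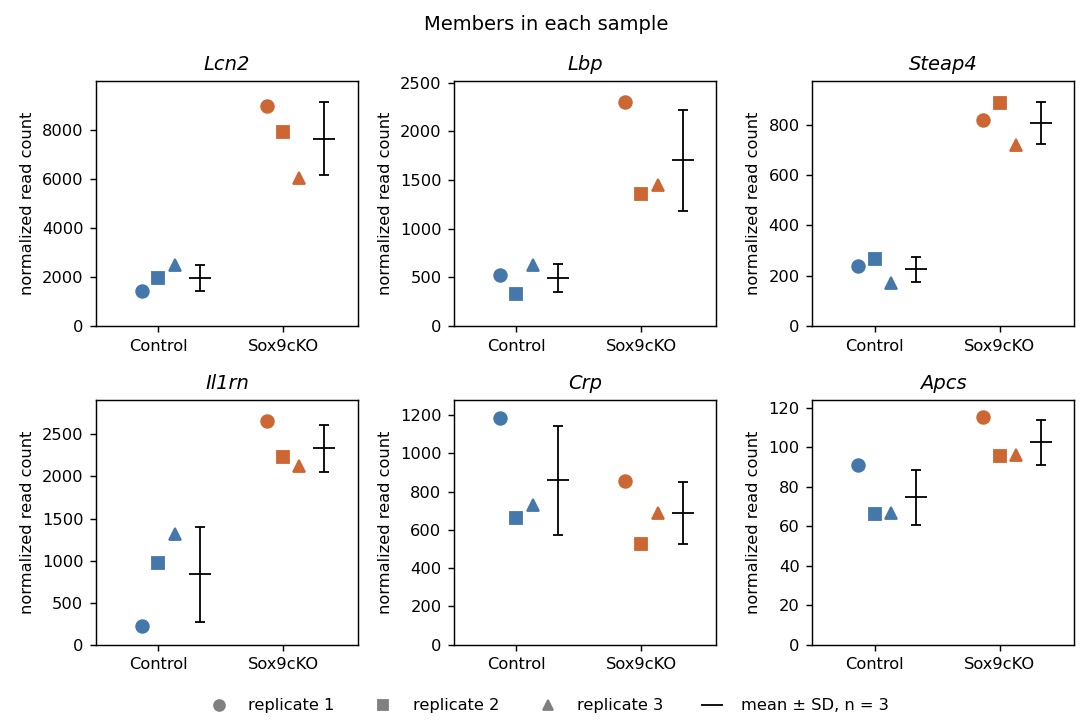
Normalised read count (y axis, from 0) of each member in every sample, with the symbol for the replicate number and the mean ± SD (n = 3) beside the points. The Sox9cKO points lie above all Control points in every panel except Crp, and the Control points of Il1rn spread from 217 to 1320.3.

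Lcn2 (ENSMUSG00000026822), the siderophore-binding lipocalin, was the most abundant member. The Control samples, in the order of their replicate numbers here and below, held 1426, 1969 and 2489.7 normalised reads and the Sox9cKO samples 8969, 7915 and 6028. The lowest Sox9cKO sample stood well above the highest Control sample. The means were 1961 ± 532 and 7637 ± 1489.8 (SD, n = 3), a log2 fold change of 1.98 (SE 0.23, 95% interval 1.43 to 2.52). Samples of the same number differed by 6.29-, 4.02- and 2.42-fold in replicates 1, 2 and 3, so the size of the rise varied between pairs while its direction did not.

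Lbp (ENSMUSG00000016024), the lipopolysaccharide carrier, also rose. Control samples held 525, 331 and 623 normalised reads and Sox9cKO samples 2299, 1358 and 1452. Sox9cKO replicate 1 was the highest by far, and the groups did not overlap. The means were 493 ± 149 and 1703 ± 518 (SD, n = 3), a log2 fold change of 1.79 (SE 0.29, 95% interval 1.12 to 2.47), with 4.38-, 4.10- and 2.33-fold differences in the pairs. Lbp was no longer past the threshold without Control replicate 1 (log2 fold change 1.86), Sox9cKO replicate 1 (1.56) or Sox9cKO replicate 3 (1.89).

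Steap4 (ENSMUSG00000012428), the metalloreductase, had the smallest standard error of the members. Control samples held 239, 265 and 171 normalised reads and Sox9cKO samples 818, 885 and 719. All 3 Sox9cKO samples were far above the highest Control sample. The means were 225 ± 49.0 and 807 ± 83.4 (SD, n = 3), a log2 fold change of 1.86 (SE 0.19, 95% interval 1.41 to 2.31), and the pairs differed by 3.43-, 3.33- and 4.22-fold.

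Il1rn (ENSMUSG00000026981), the IL-1 receptor antagonist, had Control samples that were far apart. They held 217, 969.9 and 1320.3 normalised reads, a 6.09-fold range, while the Sox9cKO samples held 2655, 2227 and 2127, a 1.25-fold range. Every Sox9cKO sample was above every Control sample, and Control replicate 1 was the low one. The means were 836 ± 564 and 2336 ± 281 (SD, n = 3), a coefficient of variation of 67.5% in Control and 12.01% in Sox9cKO. The log2 fold change of 1.83 (SE 0.61, 95% interval 0.40 to 3.26) did not pass the threshold in any analysis run, and it was 1.04 without Control replicate 1. The pair differences were 12.2-, 2.30- and 1.61-fold.

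Crp (ENSMUSG00000037942), C-reactive protein, showed overlapping groups. Control samples held 1188, 662 and 728 normalised reads and Sox9cKO samples 854, 526 and 686. The highest value of all belonged to Control replicate 1 and the lowest to Sox9cKO replicate 2. The means were 859 ± 286 and 689 ± 164 (SD, n = 3), a log2 fold change of -0.30 (SE 0.27, 95% interval -0.92 to 0.33), and each Sox9cKO sample was at 0.719, 0.795 and 0.942 of its same-numbered Control. The difference did not pass the threshold, and the interval leaves out a rise of the size seen in Lcn2.

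Apcs (ENSMUSG00000026542), serum amyloid P component, was the member with the fewest reads. Control samples held 90.8, 65.9 and 66.8 normalised reads and Sox9cKO samples 115, 95.4 and 96.2. The groups did not overlap, by a narrow margin, since Control replicate 1 was close to the lower Sox9cKO samples. The means were 74.5 ± 14.1 and 102 ± 11.3 (SD, n = 3), a log2 fold change of 0.46 (SE 0.21, 95% interval -0.04 to 0.96), which did not pass the threshold. The pairs differed by 1.27-, 1.45- and 1.44-fold.

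The levels of the members were set side by side as normalised reads per kilobase of annotated exon. In Control, Lcn2 was at 748 ± 203 per kilobase, followed by Crp at 249 ± 83.2, Il1rn at 151 ± 102, Lbp at 102 ± 30.8, Apcs at 76.7 ± 14.5 and Steap4 at 71.3 ± 15.5 (SD, n = 3). Lcn2 alone stood clear of its neighbour, and each of the other neighbours in that order overlapped in range. In Sox9cKO the order was Lcn2 at 2912 ± 568, Il1rn at 422 ± 50.7, Lbp at 353 ± 107, Steap4 at 256 ± 26.4, Crp at 199.97 ± 47.5 and Apcs at 105 ± 11.6. There Il1rn and Lbp overlapped, as did Steap4 and Crp. Crp thus stood next to Lcn2 in Control and between Steap4 and Apcs in Sox9cKO. The lengths count every annotated exon of a gene, so a gene whose long exons are little used is set too low on this scale.

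**Figure D2:**
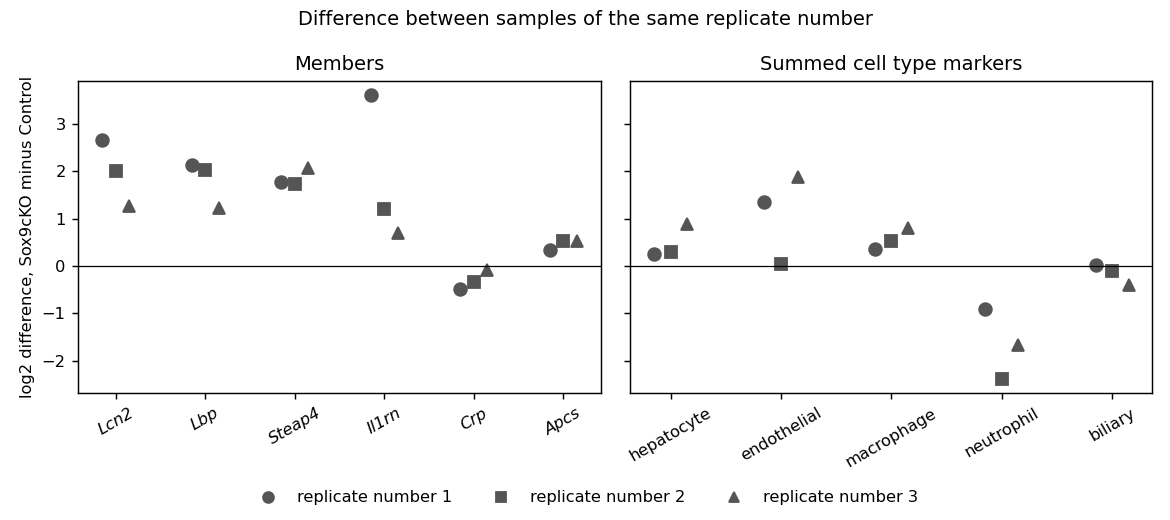
Log2 difference between the Sox9cKO and Control samples of the same replicate number (y axis), for each member (left) and for the summed markers of 5 cell types (right); each symbol is a pair. The endothelial sum differed by 2.57-, 1.02- and 3.68-fold in pairs 1 to 3, Lcn2 by 6.29-, 4.02- and 2.42-fold, Lbp by 4.38-, 4.10- and 2.33-fold and Steap4 by 3.43-, 3.33- and 4.22-fold.

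Markers of other cell types were summed in every library, because several members are made by hepatocytes and Lcn2 also by neutrophils. The neutrophil sum was 35.3, 49.2 and 54.1 normalised reads in Control and 18.9, 9.45 and 17.0 in Sox9cKO, lower in each Sox9cKO library while Lcn2 was higher. It rested on 5 of 11 markers, of which Mpo, Cxcr2 and Ngp were each at 0 in 1 library. Ly6g, S100a8, S100a9, Retnlg, Camp and Mmp8 had no row under these symbols. The G-CSF receptor gene Csf3r was 21.9 ± 1.23 in Control and 4.84 ± 2.64 in Sox9cKO (SD, n = 3; limma adjusted p = 0.0724, and 0.0441 with the replicate block). The hepatocyte sum, over 15 of 16 markers with none at 0, ranged from 19797 to 30969 in Control and from 24272 to 38966 in Sox9cKO, and the pairs differed by 1.19-, 1.23- and 1.85-fold. Alb, at 21337 ± 5551 and 29636 ± 7313, made up most of the hepatocyte sum. Of its 14 tested genes 2 rose, and 3 with the block, and the median log2 fold change was 0.35. Among all tested genes 2.03% passed as higher, and 5.06% with the block, and nothing is read from these counts. Tat rose from 91.9 ± 28.7 to 437 ± 95.6 (log2 fold change 2.26) and F2 from 52.3 ± 3.40 to 171 ± 26.8 (1.68). The log2 fold change of Tat was above that of every member. The endothelial sum, over 10 of 10 markers with none at 0, ranged from 1877 to 42296 in Control and from 6915 to 43292 in Sox9cKO, with pair differences of 2.57-, 1.02- and 3.68-fold. The macrophage sum, over 11 of 11 markers, ranged from 1038 to 1235 in Control and from 1595 to 1815 in Sox9cKO, with Marco at 0 in Sox9cKO replicate 3, and Csf1r, at 761 ± 48.9 and 1449.9 ± 186, made up most of it. The median log2 fold change of its 8 tested markers was -0.42, and 2 of the 8 were positive. Cd68 (163 ± 13.4 and 124 ± 10.7), Ptprc and Vsig4 were lower in every Sox9cKO library than in any Control library without passing the threshold. Csf1r alone of the 8 passed, as higher (log2 fold change 0.92, limma adjusted p = 0.0142), beside 2.03% of all tested genes. It no longer passed in 3 of the 6 fits that left out 1 library. The biliary sum differed by 1.02-, 0.930- and 0.760-fold in the pairs. Lcn2, Lbp and Steap4 differed by more than the hepatocyte and macrophage sums, which are mostly Alb and Csf1r, in every pair. Against the endothelial sum this held in pairs 1 and 2, while in pair 3 the endothelial sum differed by more than Lcn2 and Lbp and by less than Steap4. Lcn2, Lbp and Steap4 were chosen with their rise known, so that choice favours a difference above that of the sums. What part these cells have in the members' levels was not tested.

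The members' own families are short lists. They can hold no call at the 2.97% of all tested genes that passed in either direction by limma. With the block that share was 8.05%, and DESeq2 called 1214 of the 17153 genes. The share at an unadjusted p under 0.05 is not given here. Nothing is read from the counts of these families. Among lipocalin relatives, 7 of 13 had a row and 4 were tested, of which Rbp4, the retinol carrier, rose from 127 ± 48.0 to 600.3 ± 109 normalised reads (log2 fold change 2.28, adjusted p = 0.00736). Ptgds, prostaglandin D synthase, was at 43.8 ± 16.9 and 155 ± 66.3 (log2 fold change 1.78, adjusted p = 0.0567, and 0.00468 with the block), and Ambp at 6878 ± 1360 and 8696 ± 2167. The paralogs of Steap4 had the same sign as Steap4: Steap2 was at 265 ± 6.23 and 516 ± 155 (log2 fold change 0.91, adjusted p = 0.0961, and 0.0359 with the block), Steap1 at 5.87 ± 4.35 and 23.1 ± 5.69, and Steap3 at 9.96 ± 3.03 and 16.7 ± 4.85. None of the 3 passed, against 2 at an unadjusted p under 0.05, 0 by edgeR, with or without the block, and 1 by DESeq2.

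Ligands of the IL-1 family, which Il1rn opposes, did not pass in either direction (0 of 5 tested by limma, edgeR and DESeq2, and 2 at an unadjusted p under 0.05). Il1a was at 569 ± 519 and 692 ± 344 normalised reads. Its Control samples were widely spread, at 471, 1130 and 106, and lowest in replicate 3, while Il1rn was lowest in Control replicate 1. Il1b was at 16.3 ± 8.04 and 12.1 ± 6.89, and Il33 at 38.9 ± 12.1 and 69.2 ± 6.71. The other pentraxins also did not pass (0 of 4 tested by limma, edgeR and DESeq2, and 0 at an unadjusted p under 0.05), Nptxr being the most abundant at 245 ± 93.3 and 271 ± 91.5. Of the LBP and BPI family only Pltp was tested, at 27.3 ± 8.72 and 19.4 ± 8.46; it did not pass by any of these tools.

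Of 14 other acute phase proteins tested, 8 rose and 0 fell, with a median log2 fold change of 2.004. Among all tested genes, 2.03% passed as higher and 0.939% as lower. Haptoglobin, Hp, which binds free haemoglobin, went from 25.6 ± 2.55 to 2499 ± 1165 normalised reads (log2 fold change 6.46, adjusted p = 0.000735). Hemopexin, Hpx, which binds haem, went from 64.3 ± 19.3 to 1614 ± 958 (4.50, adjusted p = 0.00368), and the fibrinogen chain Fgb from 56.1 ± 20.6 to 666 ± 75.5 (3.62). C3, the central complement component, went from 23908 ± 7494 to 107387 ± 3002 (log2 fold change 2.22, adjusted p = 0.00512), and all 3 Sox9cKO samples lay close together. Itih4, Fga, Fgg and Lrg1 also rose, by 3.19, 3.00, 2.87 and 1.79 on the log2 scale. Lrg1, a secreted glycoprotein, no longer passed without Control replicate 3 (log2 fold change 1.84), Sox9cKO replicate 1 (1.65) or Sox9cKO replicate 3 (1.78).

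Other genes of that list were low or did not pass. Serum amyloid A genes Saa1, Saa2 and Saa3, strongly inducible in mouse liver, stayed at or below 7 normalised reads in every library, below the minimum for testing. Ceruloplasmin, Cp, was at 20809 ± 971 and 13708 ± 2472 (log2 fold change -0.62, adjusted p = 0.0980), lower in each Sox9cKO library. Metallothioneins Mt1 and Mt2 had log2 fold changes of 0.12 and 0.19 and did not pass. Among 6 negative acute phase proteins, which usually fall during the response, 2 rose: Trf, transferrin, from 775 ± 322 to 3361 ± 229 (log2 fold change 2.20, adjusted p = 0.00967), and Rbp4, given above; with the block Ahsg also passed in limma (log2 fold change 1.27, adjusted p = 0.0367), while edgeR with the block called 2 of this list.

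**Figure D3:**
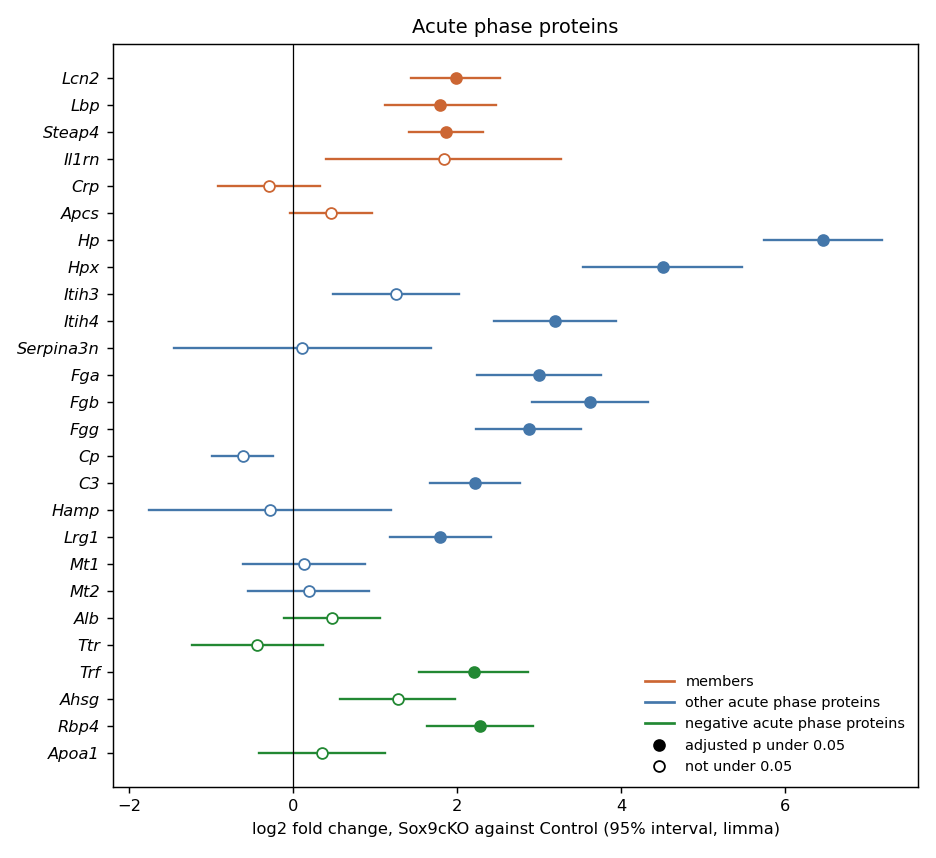
Log2 fold change of Sox9cKO against Control with the 95% limma interval (x axis) for the members, other acute phase proteins and negative acute phase proteins; filled points passed an adjusted p of 0.05. Hp lies furthest right at 6.46, the 3 called members lie between 1.79 and 1.98, and Crp, Cp, Hamp and Ttr lie left of 0.

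Limma calls in the signalling, sensing, iron and antimicrobial lists, here and below, stand beside 2.97% of all tested genes called in either direction. With the block that share was 8.05%. Of the 17153 genes edgeR called 491 and DESeq2 1214, and the share at an unadjusted p under 0.05 is not given here. Lists this short can hold no call at such shares, so nothing is read from their counts by any of these measures. Of 17 tested genes of the gp130 list, 1 rose and 1 fell, beside a median log2 fold change of 0.079. Il6ra, the IL-6 receptor chain, rose from 119 ± 11.6 to 262 ± 47.1 normalised reads (log2 fold change 1.12, adjusted p = 0.0275), and Clcf1, a gp130 cytokine, fell from 2353 ± 158 to 1510.0 ± 91.9 (log2 fold change -0.64, adjusted p = 0.0277). Both missed the threshold in 5 of the 6 fits that left out 1 library, all but that without Sox9cKO replicate 1, with adjusted p up to 0.127 for Il6ra and 0.134 for Clcf1. Il6 was at 9.98 ± 7.25 and 41.1 ± 19.0 (adjusted p = 0.171, and 0.0231 with the block). Stat3 was at 8570 ± 986 and 6299 ± 1183 (log2 fold change -0.46, adjusted p = 0.218, and 0.0432 with the block), and Socs3, a STAT3 feedback inhibitor, at 1904 ± 1134 and 2434 ± 1326. Of 10 STAT3 and C/EBP target or partner factors none passed by limma, edgeR or DESeq2, 1 did at an unadjusted p under 0.05, and with the block Pim1 did in limma (adjusted p = 0.0480) and none did in edgeR.

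On the IL-1 and lipopolysaccharide side, Irak3, an inhibitor of the kinases below these receptors, rose from 66.7 ± 12.6 to 161 ± 11.4 normalised reads (log2 fold change 1.27, adjusted p = 0.0211), the only call among 13 tested genes of IL-1 signalling; with the block Irak2 also passed (adjusted p = 0.0268). Irak3 missed the threshold when any library other than Control replicate 2 was left out, with adjusted p of 0.0523 to 0.103. Of 13 tested genes of lipopolysaccharide and microbial sensing, none passed by limma or edgeR, Tirap by DESeq2, and 4 had an unadjusted p under 0.05. Cd14, which receives lipopolysaccharide from the protein that Lbp encodes, was at 4456 ± 301 and 6171 ± 1145 (log2 fold change 0.46, adjusted p = 0.184), and Tlr4 at 459 ± 24.3 and 502 ± 277. Neither Cd14 nor Tlr4 passed by limma, edgeR or DESeq2.

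The iron-handling partners of Lcn2 and other antimicrobial genes were also read. None of 10 tested genes for lipocalin-2 receptors and iron entry passed by limma, edgeR or DESeq2, against 2 at an unadjusted p under 0.05. The lipocalin-2 receptor gene Slc22a17 was at 112 ± 22.2 and 78.5 ± 6.88 and Lrp2, another receptor, at 26.6 ± 12.3 and 74.4 ± 46.3 (adjusted p = 0.249, and 0.0252 with the block). Of 11 tested antimicrobial genes none passed by limma or edgeR, 2 passed by DESeq2, and 3 had an unadjusted p under 0.05. Nos2, which makes nitric oxide, was at 261 ± 115 and 2533 ± 1903 (log2 fold change 3.08, adjusted p = 0.0512, and 0.00144 with the block), and Wfdc2, a secreted protease inhibitor, at 355 ± 52.7 and 859 ± 417 (adjusted p = 0.109, and 0.0140 with the block). Lyz2, a lysozyme, went the other way, at 42.2 ± 22.2 and 15.8 ± 7.44 (log2 fold change -1.33, adjusted p = 0.243, and 0.0417 with the block).

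**Figure D4:**
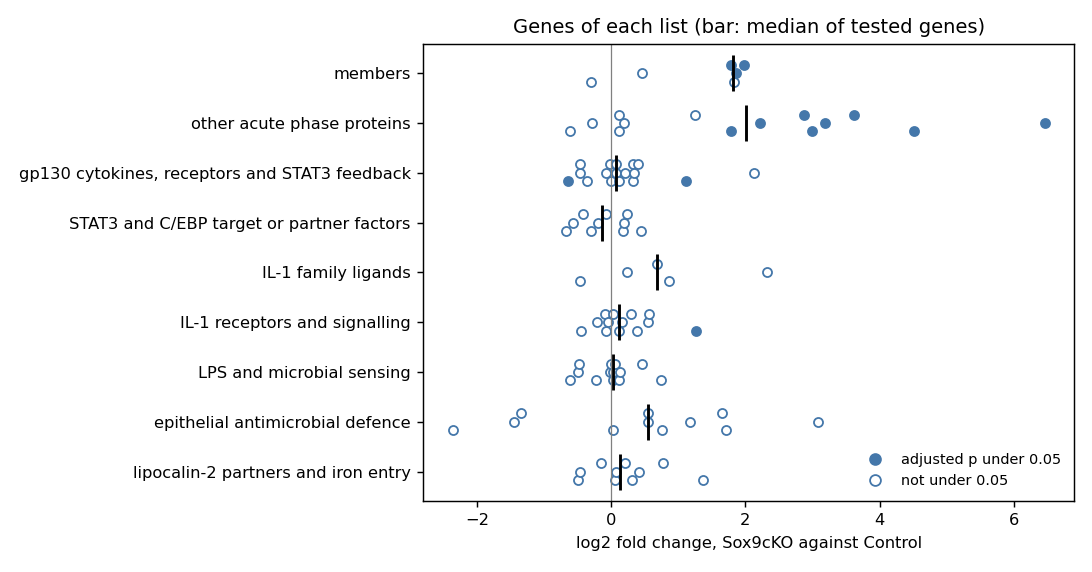
Log2 fold change of each tested gene (x axis) by list (y axis), with a bar at the list's median; filled points passed an adjusted p of 0.05. The medians are 1.81 for the members and 2.004 for other acute phase proteins, and the medians of the signalling and sensing lists lie between -0.14 and 0.68.

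The genes whose log2 values followed each member most closely over the 6 samples were found by Pearson's r, as a description over samples that share the group difference and their libraries. Sprr1a, a cornified envelope protein gene, was nearest to Lcn2 (r = 0.999) and rose from 4154 ± 961 to 14749 ± 2487 normalised reads. Its deviations from the group means also followed those of Lcn2 (r = 0.996). Over these deviations Snord73a was nearer to Lcn2 (r = 0.998, log2 fold change 0.0116), and Ropn1l was about as near (r = 0.996, log2 fold change -0.105). The genes named here and below have the highest r of all genes compared, so an r near 1 is not read as a link. For Lbp the nearest were Wdr90 (r = 0.997), Fubp3 (0.995) and the complement gene C4b (0.993). Genes close to Steap4 included Dennd2d and Zcchc14 (both r = 0.997), and those close to Il1rn included Nqo1 (0.996) and Jrk (0.981). The nearest were for Crp Mzt2 (0.991), Skp1 and Mmgt1 (both 0.988), and for Apcs Lamtor5 (0.996), Zfyve19 and Etfa (both 0.991). With the group difference taken out, r between members ran from -0.776 to 0.944. An r over the deviations of only 6 samples is imprecise, so these values are a description. Deviations of Lcn2 and Il1rn had r = 0.835 and those of Crp and Apcs r = 0.944, while those of Apcs and Il1rn had r = -0.776 and those of Lcn2 and Steap4 r = -0.302.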

How the data were processed

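RNA of 3 Control and 3 Sox9cKO samples was sequenced from stranded, rRNA-depleted libraries with unique molecular identifiers, per the labels' protocols. The deposited signal is a gene count divided by a factor for each library: all values in a library were whole multiples of a common step (100%, tolerance 0.001 reads), and the factors, 0.868 to 1.19, equalled median-of-ratios size factors. DESeq2 1.36.0 and the build GRCm39 are named in the submitters' processing notes, without a role; the aligner, the counter, the use of the identifiers and whether strand was used are not given in the sources used here. The table was limited to genes with at least 10 reads in total.

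Genes with a mean of at least 10 normalised reads were tested on log2(value + 1) with limma 3.58.1 in R 4.3.3 (eBayes with trend, two-sided, Benjamini-Hochberg over all tested genes, threshold 0.05). On this scale the change of low genes is understated. Read totals limit precision by counting error only. Alternatives were edgeR 4.0.16 and DESeq2 1.42.0 on the recovered reads, other pseudocounts, filters and scalings, the replicate block, and leaving out each library. The labels number replicates 1 to 3 in each group. Deviations of same-numbered samples from their group means correlated at 0.207, 0.472 and 0.542, so the numbers were taken to pair them. The main fit, its intervals and the fits without a library did not use this pairing, which entered only in the alternatives with the block. The scripts were tested on simulated data.

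The members and the gene lists were chosen with earlier results of these data known. Named genes were all members, family genes, up to 5 called genes and the 2 most abundant genes of each list, and the 3 genes most like each member; not every gene so selected is printed, and any gene outside the rule was picked with its values in view. Exon lengths came from GENCODE M21 on GRCm38 and promoter sequences from RefSeq on GRCm38.p6.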

Additional observations from a re-analysis of the deposited data

How the results depend on the processing

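Over 17 alternatives the log2 fold changes of the 6 members and of the 17 called list genes kept their sign; other named genes were not followed through the alternatives singly. The number of genes called, 510, became 1381 (868 higher and 513 lower) with the replicate block, 1160 in edgeR with the replicate block and 1214 in DESeq2, and each of these sets held all 510. Leaving out 1 library gave 200 to 389 genes; it was 200 without Control replicate 1, 210.0 without Control replicate 3, 337 without Sox9cKO replicate 2 and 280.0 without Sox9cKO replicate 3. The members called numbered 3, and 2 without the intensity trend or without Control replicate 1, Sox9cKO replicate 1 or Sox9cKO replicate 3, where Lbp dropped out. The block changed no call of a member; the calls of other genes that it changed stand beside their values, as far as they are named. The log2 fold change ranged from 1.77 to 2.17 for Lcn2, 1.53 to 1.99 for Lbp, 1.67 to 1.99 for Steap4, 1.04 to 2.34 for Il1rn, -0.47 to -0.04 for Crp and 0.37 to 0.61 for Apcs. Of these list genes, 11 passed throughout; Clcf1, Csf1r, Il6ra, Irak3, Krt7 and Lrg1 did not. The cause of these changes was not tested, except that a fit without a library has fewer samples.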

Other observations

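Several epithelial defence genes were, like Il1rn, low in Control replicate 1; they were picked after their values were seen. Duox2, an epithelial oxidase, was at 111, 1622 and 1656 normalised reads in Control replicates 1 to 3 and at 4838, 1105 and 1757 in Sox9cKO replicates 1 to 3. Its maturation factor Duoxa2 was at 16.0, 289.6 and 237 in Control and at 1101, 146 and 250.2 in Sox9cKO. Dmbt1, a secreted scavenger receptor, was at 12879, 37179 and 34037 in Control and at 84927, 13042 and 45888 in Sox9cKO. In each of these 3 genes, as in Il1rn, the highest of the 6 values belonged to Sox9cKO replicate 1 and the lowest to Control replicate 1. Pigr, the carrier of IgA into bile, was at 4068, 5297 and 5656 in Control and at 8038, 979 and 768 in Sox9cKO, so Sox9cKO replicate 1 was again the highest. None of these genes passed the threshold (limma), and the groups overlapped in each.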
